A study of Rattus norvegicus with 20 samples.

Results

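Balloon injury strips and stretches the wall of an artery, and the vessel then heals over days and weeks by inflammation, division of smooth muscle cells and regrowth of endothelium. The arrays described here compared that response in old and young rats 7 days after injury. They were the 4 arrays, of 20 in the series, whose labels name old versus young arteries at this time, and all 4 were used. Each array carried RNA of 1 iliac artery of an old Fisher rat (22 months) and 1 of a young Fisher rat (3 months). The array titles place both 7 days after injury, and 8 arteries were measured. The labels give the young rats 3 months of age, the series' design text 4 months and the methods 2 months. By the methods the old and young animals came from different suppliers, and age and supplier cannot be told apart. Other arrays compared old with young arteries in healthy rats (3 arrays), 30 min after injury (3) and 3 days after injury (4), and arteries of the same age at 30 min (6 in all). The study's supplement describes the young against young comparison at 30 min as injured against control arteries, so those arrays may hold an injury difference. Its title for the list at 3 days names old injured against young control arteries, whereas the study's text speaks of injured arteries of both ages. Whether the young arteries at 3 and 7 days were injured as the old ones were is therefore not settled. If they were not, age and injury cannot be told apart there.

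In the first week after such an injury, smooth muscle cells of the media leave their contractile state, copy their DNA and begin to form a neointima. Platelets and leukocytes attach to the bare surface, endothelial cells grow back from the edges of the wound, and matrix proteases and collagens reshape the wall. The genes below were therefore read in groups: division, interferon response, endothelium and vasoactive peptides, leukocytes, matrix, and markers of blood, fat and liver that an artery sample can carry. All RNA came from whole artery pieces, so fewer cells of a type and less RNA per cell cannot be told apart. The values are ratios and hold no level, so that the arterial markers could be compared between ages but not checked for their abundance.

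The old artery was labelled with Cy5 on replicates 1 and 3 and with Cy3 on replicates 2 and 4. The ratios of 41010 probes could therefore be divided into a dye-following part, the mean after the sign of the replicates with old RNA in Cy3 was turned, and a constant part, the mean of the values as deposited. If the deposited ratios stand as Cy5 over Cy3, the dye-following part is the difference of old over young arteries and the constant part is a difference between the dyes. If the ratios were already set as old over young, the roles are exchanged. No source used here states which holds. The turned sign is called likely, because the fold changes listed for 1902 probes at 30 min and 807 probes of the part held for 3 days all matched the turned means to within 1%, against 5 and 1 probes without turning. That list was not held for 7 days. The direction is therefore not settled for these 4 arrays, and both parts are given. "Higher" and "lower" below refer to old against young arteries under the turned sign.

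The constant part was the larger of the parts. Over all probes, as deposited, the arrays of the same dye orientation correlated at 0.384 and 0.394, and the 4 pairs of opposite orientation at 0.191 to 0.369. Turned by dye, these 4 pairs therefore ran from −0.369 to −0.191, with replicates 2 and 3 the least opposed. The variance of the dye-following part over probes was 0.125 and that of the constant part 0.323 (log2 units squared). All 4 arrays had the same sign for 9.60% of probes when turned and for 36.2% as deposited. The constant part at 7 days correlated at 0.615 over probes with that at 3 days, at 0.212 with that of young arteries against young arteries, at 0.0425 with that of old against old arteries and at −0.192 with that of healthy arteries. The dye-following part correlated at 0.0793 with that of healthy arteries and at −0.0029 with that at 3 days. These correlations run over probes of the same arrays and are descriptions, and the young against young arrays cannot be taken as controls of the dye alone. Array values also differed in format: the arrays of old against young arteries with old RNA in Cy3 held up to 6 significant digits and all other arrays up to 9.

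**Figure D1:**
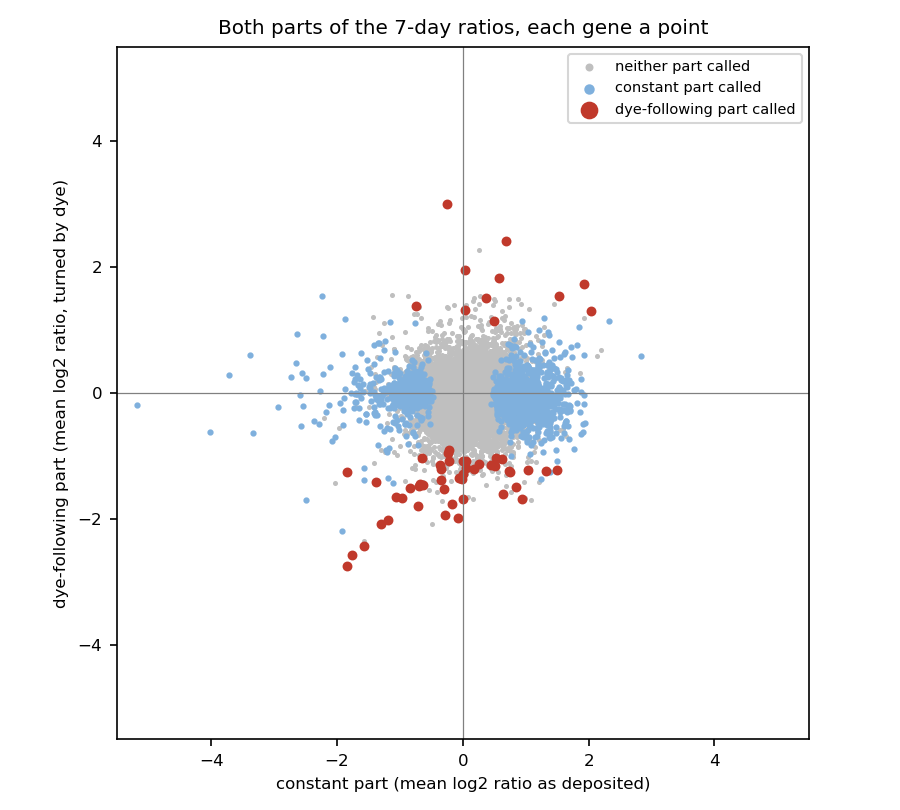
The constant part (horizontal axis, mean log2 ratio as deposited) and the dye-following part (vertical axis, mean log2 ratio turned by dye) of 16421 genes at 7 days, each gene a point. The cloud is wider along the constant part, and the 57 genes called in the dye-following part (red) lie mostly below 0, as 46 of them were lower in old arteries.

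A further property of the values bears on single genes. On each array many probes of unrelated genes held exactly the same ratio in every digit: 27.1% to 40.9% of the probes of the 4 arrays shared their value with at least 4 others, and on replicate 4 a single value, −0.34 when turned, stood on 1595 probes. Over all probes 52.5% had no such repeated value on any of the 4 arrays. For probes of cytosolic ribosomal proteins, which nearly every cell makes in large amounts, this share was 94.1%, and for olfactory and vomeronasal receptors, best known from the nose, it was 9.52%. No spot intensities were used here, so whether repeated values belong to weak spots was not tested. The number of repeated values is given beside the genes named below.

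Expression was compared in 16421 genes, the mean of the probes of each, by limma on all 20 arrays with both parts fitted for each comparison. At an adjusted p under 0.05, 57 genes (0.347% of those tested) passed in the dye-following part, 11 higher (0.067%) and 46 lower (0.28%) in old arteries. In the constant part 1418 genes (8.64%) passed, 938 higher (5.71%) and 480 lower (2.92%). At an unadjusted p under 0.05 the dye-following part held 1396 genes (8.5%), 478 higher (2.91%) and 918 lower (5.59%), and the constant part 3962 (24.1%), 2570 higher (15.7%) and 1392 lower (8.48%). The study's thresholds, which add a 2-fold change to the unadjusted p, gave 227 genes (1.38%) in the dye-following part, 70 higher (0.426%) and 157 lower (0.956%), and 724 (4.41%) in the constant part, 491 higher (2.99%) and 233 lower (1.42%). All 4 turned arrays were above 0 for 3.87% of genes and below 0 for 6.07%, 9.94% together, and all 4 had the same sign as deposited for 34.5%. Of the 57 genes called in the dye-following part, 48 had the same sign on all 4 turned arrays, 20 were also called in the constant part, and 11 (19.3%) had no repeated value, against 55.8% of all genes. The calls draw on the spread of all 20 arrays. With the 7-day arrays alone no gene passed in either part (1159 genes of the dye-following part at an unadjusted p under 0.05), nor did any in the dye-following part by a test of each gene's own 4 ratios against 0 without moderation (635 at an unadjusted p under 0.05).

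The genes named as highest and lowest had to have the same sign on all 4 turned arrays, so their agreement in sign follows from the choice. The highest gene was S100vp, which encodes a calcium-binding S100-type protein named after the ventral prostate. Its old over young log2 ratios were 2.29, 3.24, 3.21 and 3.27 on replicates 1 to 4, with 1 repeated value. All 4 arrays lay far above 0 in both dye orientations. The dye-following part was 3.00 (standard error 0.26, 8.01-fold, adjusted p = 0.000373) and the constant part −0.25. Grpca, a glutamine- and glutamic acid-rich protein best known from the submandibular gland, had 3.93, 1.16, 2.26 and 2.31 (dye-following part 2.41, standard error 0.32, adjusted p = 0.00734). Replicate 1 stood highest and replicate 2 lowest, and all were above 0. Sprr1a, a small proline-rich protein of the cornified envelope of epithelia, had 2.58, 1.62, 2.24 and 0.90 with no repeated value (1.84, standard error 0.31, adjusted p = 0.0356). Its call ended without replicate 1, 2 or 3 (adjusted p = 0.127, 0.152 and 0.0936).

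A pair of plasma protein genes was also called higher. Ambp, the precursor of alpha-1-microglobulin and bikunin, which is made in the liver, had 2.14, 1.10, 1.86 and 2.74, above 0 in both orientations (1.96, standard error 0.22, adjusted p = 0.0029). Fgg, the gamma chain of fibrinogen, had 2.60, 1.32, 1.15 and 0.97 (1.51, standard error 0.27, adjusted p = 0.0391), with 5 of 8 values repeated. The call of Fgg ended without replicate 1, 2 or 4 (adjusted p = 0.182, 0.161 and 0.0586), and its probes taken singly had 1.90 and 1.12, neither of which passed. Below the threshold, but 2-fold higher at an unadjusted p under 0.01 and with 4 of 4 arrays above 0, stood Olr1, a receptor of oxidised low-density lipoprotein (1.54, adjusted p = 0.232), Trpc4, a cation channel (1.54, adjusted p = 0.186), Cyp2c6v1, a cytochrome P450 (1.52, adjusted p = 0.0926), Lgi2 (1.47, adjusted p = 0.173) and Tcap, a protein that caps titin in striated muscle (1.39, adjusted p = 0.231). The array values of Olr1 ran from 0.22 to 2.83 and those of Trpc4 from 1.24 to 1.96.

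Among the lowest genes, several were far below 0 in both dye orientations. Slco1a4, a transporter of organic anions, had −1.75, −1.58, −1.63 and −1.81 as the mean of its probes (dye-following part −1.69, standard error 0.20, adjusted p = 0.00374, constant part 0.00). The closeness of the arrays came from the averaging, since the probes had opposite constant parts. One probe of Slco1a4 had −2.36, −0.90, −2.28 and −1.89 (constant part −0.46) and passed singly (adjusted p = 0.00655), and the other had −1.13, −2.26, −0.98 and −1.73 (constant part 0.47) and did not (adjusted p = 0.0588). Hbe1, an embryonic globin of the beta cluster, had −2.34, −2.001, −1.79 and −1.84 (−1.99, standard error 0.21, adjusted p = 0.00252), and each of its probes passed singly (−1.47 and −2.51). Globins of this cluster are close in sequence, and how far other globins bind these probes is unknown. Prlr, the prolactin receptor, had −2.57, −1.81, −1.87 and −1.47 with no repeated value (−1.93, standard error 0.22, adjusted p = 0.00291). In the gene means the constant part of these 3 genes was between −0.29 and 0.00.

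Other low genes differed widely between the dye orientations. Plppr5, a membrane protein of the phospholipid phosphatase family best known from brain, had −4.69 and −4.51 with old RNA in Cy5 but −1.08 and −0.73 with old RNA in Cy3. Its dye-following part was −2.75 (standard error 0.21, adjusted p = 0.000162) and its constant part −1.85 (adjusted p = 0.000904). Apba2, an adaptor that binds the amyloid precursor protein, had −4.31 and −4.37 against −0.48 and −1.15 (dye-following part −2.58, adjusted p = 4.62e-05, constant part −1.76, adjusted p = 0.000394). Both genes were called in both parts. Tnfrsf18, a costimulatory receptor of T cells also known as GITR, had −3.55, −1.23, −3.20 and −0.34 (−2.08, standard error 0.21, adjusted p = 0.0015). All 4 of these were repeated values, shared by 11, 342, 13 and 1595 probes of their arrays. Khdrbs2, an RNA-binding protein, had −2.22, −1.33, −5.81 and −0.39 (−2.44, standard error 0.42, adjusted p = 0.0368), and its call ended without replicate 2 (adjusted p = 0.152).

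Epha4, a receptor of ephrins, was called at −2.02 (standard error 0.25, adjusted p = 0.00498) through 1 of its 3 probes. That probe had −8.31 and −8.03 with old RNA in Cy5 and −1.10 and −0.56 in Cy3, and the other probes had dye-following parts of −0.88 and −0.70 with no call. With the median of the probes in place of their mean, Epha4 did not pass (adjusted p = 0.473). Olr1057, an olfactory receptor gene with 3 of 4 values repeated, had −0.98, −1.35, −2.88 and −1.84 (−1.76, adjusted p = 0.0466), and its call ended without replicate 2, 3 or 4 (adjusted p = 0.11, 0.197 and 0.11). Across the named genes that were called, 10 of 18 kept an adjusted p under 0.05 whichever of the 4 arrays was left out. They were S100vp, Grpca, Ambp, Plppr5, Apba2, Tnfrsf18, Epha4, Hbe1, Prlr and Slco1a4. Of these, Tnfrsf18 did not pass with 1 dye coefficient shared by all comparisons (adjusted p = 0.11).

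**Figure D2:**
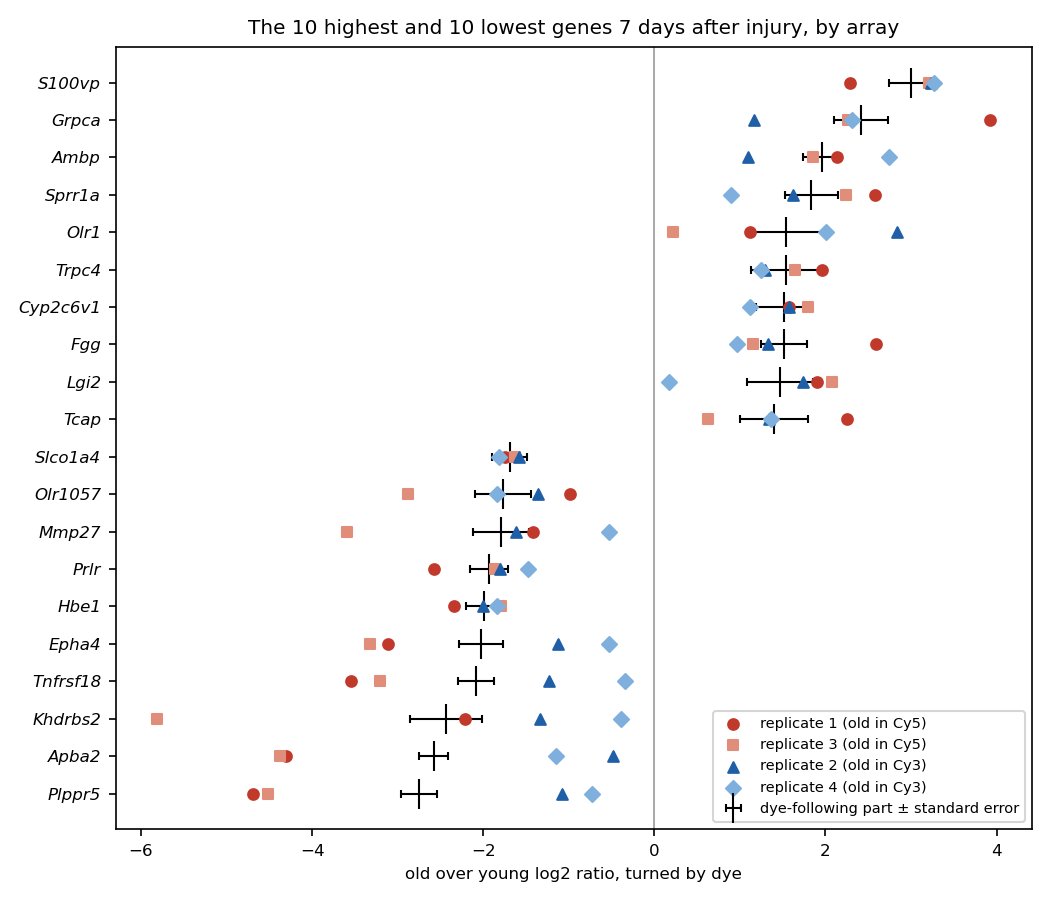
Old over young log2 ratios, turned by dye, of the 10 highest and 10 lowest genes on each of the 4 arrays at 7 days (points, red with the old artery in Cy5 and blue with it in Cy3), with the dye-following part and its standard error (black). Slco1a4 (a mean of probes that disagree between arrays) and Hbe1 have the 4 arrays close together, whereas Plppr5, Apba2, Tnfrsf18 and Epha4 lie far lower on the Cy5 arrays than on the Cy3 arrays.

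Genes of cell division were mostly above 0 in the mean, but not on all arrays. DNA replication (28 genes, such as the helicase Mcm5 and the licensing factor Cdt1) had a median dye-following part of 0.30 with 27 of 28 above 0, and mitosis (31 genes of the spindle and of mitotic kinases) a median of 0.38 with 29 of 31 above 0, against a median of −0.01 over all genes. On replicates 2 and 3, which differ in dye orientation, the mitosis median was 1.03 and 0.89. On replicates 1 and 4 it was −0.14 and −0.30. DNA replication had medians of 0.22, 0.67, 0.86 and −0.48 on replicates 1 to 4. None of the 59 genes had the same sign on all 4 turned arrays (9.94% of all genes did), and none was called at an adjusted p under 0.05. At an unadjusted p under 0.05, 4 of 28 replication genes and 2 of 31 mitosis genes were higher, against 2.91% of all genes.

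The named members showed this pattern. Kif20b, a mitotic kinesin, had −0.14, 2.06, 1.14 and −0.16 on replicates 1 to 4 (dye-following part 0.73, adjusted p = 0.572). Rrm2, the small subunit of ribonucleotide reductase, had 0.33, 1.49, 1.46 and −0.56 (0.68, adjusted p = 0.49). Mcm5 had 0.71, 0.85, 1.44 and −0.54 (0.61, adjusted p = 0.49). Replicate 4 was the lowest for each, and replicates 2 and 3 the highest. Cdt1 had 1.07, 0.69, 1.29 and −0.49 (0.64), and Ccne2, the cyclin E2 of the entry into replication, −0.13, 1.46, 1.20 and −0.27 (0.57). The kinase gene Ttk had a mean of 0.44 and the phosphatase gene Cdc25c 0.56. The kinesin Kif11 had −0.38 as a mean of probes that disagreed, with −1.30 on a probe with 3 repeated values and 0.54 on a probe with none.

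The interferon response was low as a group, and on the same arrays. The 22 genes of this list are induced by interferons during viral infection and inflammation, through transcription factors that bind a repeated GAAA sequence. Their median dye-following part was −0.53 with 1 of 22 above 0 (Irf1, 0.11). At an unadjusted p under 0.05, 6 of 22 (27.3%) were lower, against 5.59% of all genes, and none was called at an adjusted p under 0.05. The medians were 0.01, −1.01, −0.97 and −0.35 on replicates 1 to 4. Replicates 2 and 3 were thus the lowest in this list and the highest in mitosis. All 4 turned arrays were below 0 for 5 of 22 genes (22.7%, against 6.07% of all genes).

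By gene, Oasl, a 2'-5'-oligoadenylate synthetase-like protein, had 0.07, −1.43, −2.14 and −0.68 on replicates 1 to 4 (dye-following part −1.05, standard error 0.37, adjusted p = 0.385). Oas1b, of the same family, had −1.29, −1.93, −2.40 and 0.11 (−1.38, adjusted p = 0.482). Mx1, an antiviral GTPase, had −0.02, −2.79, −2.21 and −0.09 (−1.28, adjusted p = 0.767). The reading was near 0 on replicates 1 and 4 and more than 4-fold lower on replicates 2 and 3. Ifi44 had −1.27, −0.84, −1.23 and 0.28 (−0.77, adjusted p = 0.408), and Ifi44l had −0.22, −0.90, −1.65 and −0.28 (−0.76, adjusted p = 0.511). Oas1a and Oas1b are close copies, and their probes may share signal. In healthy arteries the list had a median of 0.05.

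The promoters of the interferon list are shown for the 3 of the 6 members named above that hold the motif, because most genes of the list lay below 0 together and their control sequence is well known. The promoters of Oasl, Mx1 and Irf1 held no match. The sequences run from 250 bases before to 50 bases after the start of each gene (RefSeq, GRCr8), and capitals mark each match to GAAA, any 2 bases and GAAA, the core of the interferon-stimulated response element, on either strand. Overlapping matches run together.
Ifi44 (chr2:243303791-243304090, minus strand): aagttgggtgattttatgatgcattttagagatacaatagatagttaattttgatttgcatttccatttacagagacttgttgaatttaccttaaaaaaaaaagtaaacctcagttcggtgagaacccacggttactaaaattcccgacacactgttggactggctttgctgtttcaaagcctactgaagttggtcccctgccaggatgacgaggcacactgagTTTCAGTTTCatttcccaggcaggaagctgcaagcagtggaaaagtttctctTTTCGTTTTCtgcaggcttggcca
Ifi44l (chr2:243328473-243328772, plus strand): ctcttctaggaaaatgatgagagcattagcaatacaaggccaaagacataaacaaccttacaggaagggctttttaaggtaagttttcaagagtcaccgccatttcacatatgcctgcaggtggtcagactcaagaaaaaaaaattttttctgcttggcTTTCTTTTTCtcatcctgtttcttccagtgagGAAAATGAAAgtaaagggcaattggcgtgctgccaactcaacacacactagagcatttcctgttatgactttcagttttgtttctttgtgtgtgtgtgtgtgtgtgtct
Oas1b (chr12:41395803-41396102, minus strand): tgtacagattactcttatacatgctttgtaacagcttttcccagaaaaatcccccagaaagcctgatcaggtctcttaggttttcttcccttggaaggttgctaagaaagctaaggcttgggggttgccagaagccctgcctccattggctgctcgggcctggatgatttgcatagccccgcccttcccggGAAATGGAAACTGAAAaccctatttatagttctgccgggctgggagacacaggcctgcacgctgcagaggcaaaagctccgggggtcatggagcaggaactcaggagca

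Of the 22 interferon genes, 17 matched a promoter by symbol, and 11 of the 17 (64.7%) held a match to this motif, against 3.92% of all 33469 promoters of the same length. Of the 31 mitosis genes, 27 matched a promoter. TTTGAA, the core of the cell cycle homology region, stood in 18 of 27 (66.7%, against 18.3% of all promoters), and CCAAT in 22 of 27 (81.5%, against 37.5%), both strands counted. These counts describe letters in a window. They do not show that a factor was bound in these arteries.

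**Figure D3:**
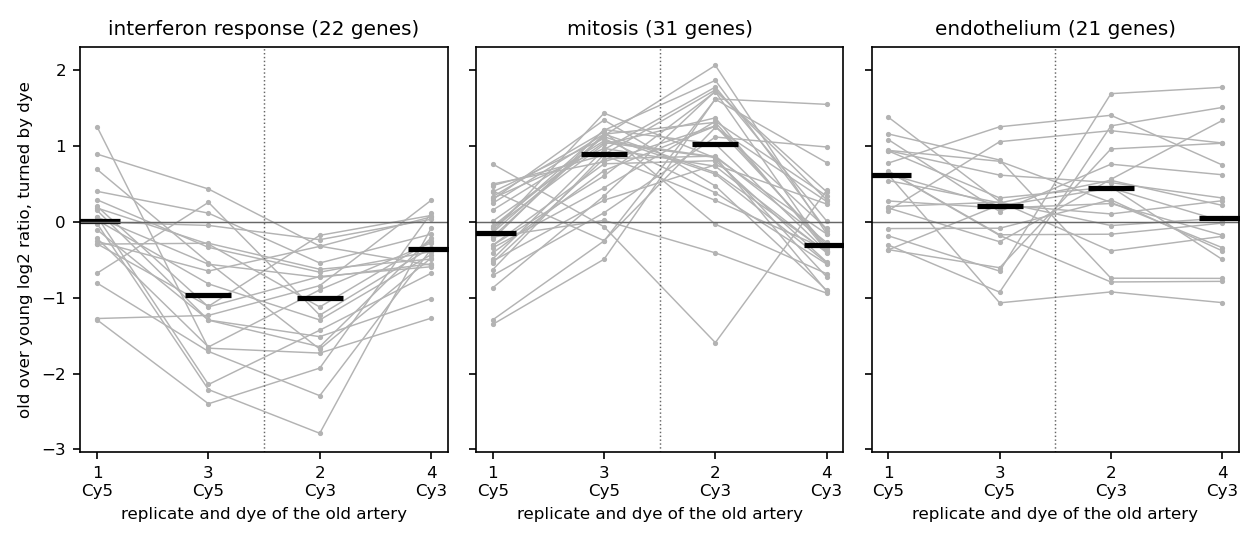
Old over young log2 ratios, turned by dye, of every gene of the interferon response, mitosis and endothelium lists (grey lines) on the 4 arrays at 7 days, with the list median on each array (black bars). Interferon medians are lowest and mitosis medians highest on replicates 3 and 2, while the endothelium medians stay above 0 on all 4 arrays.

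Endothelial genes were mostly above 0, without a call. The median of 21 genes was 0.30 with 18 above 0, and the medians of the arrays were 0.62, 0.45, 0.21 and 0.05 on replicates 1 to 4. At an unadjusted p under 0.05, 6 were higher and 1 lower of the 21, against 2.91% and 5.59% of all genes. Edn1, the vasoconstrictor endothelin-1, had 0.78, 1.41, 1.25 and 0.75, with no array near 0 (1.05, standard error 0.25, adjusted p = 0.124). Its ratio was −0.61 in healthy arteries and 0.06 at 3 days. Gja5, the gap junction protein connexin 40, had 0.15, 1.20, 1.06 and 1.04 (0.86, adjusted p = 0.328). Pecam1, an adhesion protein of endothelial junctions, had 1.08, 0.76, 0.14 and 0.62 (0.65), and Nos3, the endothelial nitric oxide synthase, 0.94, 0.52, 0.62 and 0.32 (0.60). Both were above 0 on 4 of 4 arrays. The transcription factor Sox17 had −0.18 and −0.65 on the Cy5 arrays and 1.69 and 1.77 on the Cy3 arrays (0.66, constant part −1.07, adjusted p = 0.0143), but its probes disagreed. One had −1.18, 2.89, −2.07 and 3.15 on replicates 1 to 4, and so was below 0 on all 4 arrays as deposited. The other had 0.82, 0.49, 0.77 and 0.39, all above 0 (0.62, unadjusted p = 0.00399 and adjusted p = 0.255 over all probes, from limma). Kdr, a receptor of vascular endothelial growth factor, went the other way with 0.62, −0.92, −1.07 and −1.06 (−0.61, adjusted p = 0.456).

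In angiotensin, endothelin and nitric oxide signalling (19 genes, median 0.03), Agt was called lower. Agt encodes angiotensinogen, the precursor of the angiotensins. It had −0.97, −1.85, −1.79 and −0.87 on replicates 1 to 4 and no repeated value (−1.37, standard error 0.22, 2.58-fold, adjusted p = 0.0287). The Agt call ended without replicate 2 (−1.13, adjusted p = 0.14), without replicate 3 (−1.17, adjusted p = 0.138) and when the spread of all arrays was made equal (adjusted p = 0.067). Agtr2, a receptor of angiotensin II, had −0.67, −1.39, −0.29 and −0.53 (−0.72, adjusted p = 0.12), but its probes disagreed, with −1.44 on a probe with 1 repeated value and 0.01 on a probe with 4. Edn2, endothelin-2, had 1.94, −1.10, 1.51 and 0.24 (0.65, adjusted p = 0.325), and all 4 values were repeated.

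Of the 20 genes of neutrophils and mast cells 7 were above 0 (median −0.11). The medians were 0.63, −0.52, 0.09 and −0.58 on replicates 1 to 4, above 0 with old RNA in Cy5 and below 0 with old RNA in Cy3. Of the 20, 5 were lower at an unadjusted p under 0.05 (25%, against 5.59% of all genes) and 2 higher, and 5 of 20 were below 0 on all 4 arrays (6.07% of all genes). Several mast cell genes were below 0 on every array, without a call. The mast cell chymase Cma1 had −1.20, −1.06, −1.41 and −1.38 (−1.26, unadjusted p = 0.025 from limma), the protease Mcpt1 −1.15, −0.93, −0.66 and −0.96 (−0.93, adjusted p = 0.229), the carboxypeptidase Cpa3 −1.70, −0.07, −1.05 and −2.22 (−1.26, adjusted p = 0.389), and the IgE receptor chain Ms4a2 −0.88, −0.06, −0.85 and −0.98 (−0.69, adjusted p = 0.31). Replicate 2 was near 0 for Cpa3 and Ms4a2. Kit and Tpsab1, also made by mast cells, had −0.05 and −0.11 with arrays on both sides of 0. The neutrophil alarmin S100a8 had 1.31, 1.17, 1.32 and 0.32 (1.03, adjusted p = 0.212), its partner S100a9 1.35, 1.22, 1.77 and −0.32 (1.01), and the neutrophil collagenase Mmp8 2.61, 1.19, 1.85 and 0.36 (1.503, adjusted p = 0.467). Replicate 4 was the lowest for all 3. The probes of S100a8 had 0.44, 1.15 and 1.504, and the highest passed singly (adjusted p = 0.0455 over all probes). Other neutrophil genes did not share this pattern, and the peroxidase Mpo had −0.64.

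Macrophage genes had a median of −0.10 (4 of 20 above and 16 below 0), with medians of 0.40, −0.38, −0.14 and −0.30 on replicates 1 to 4, and no member passed an unadjusted p under 0.05. Cytokines and chemokines had a median of 0.20 (18 of 28 above 0) and array medians of 1.12, −0.35, 0.15 and −0.21, with replicate 1 the highest. Cxcl14, a chemokine, had 2.70, 1.01, 0.38 and −0.10 (1.00, adjusted p = 0.342), and Ccl2, the chemokine that attracts monocytes, had 2.82, 1.72, 0.92 and 0.12 (1.40, standard error 0.74, adjusted p = 0.677). Cxcl9, an interferon-induced chemokine, had 0.61, −1.17, −0.36 and −0.79 (−0.43), and Lif, a cytokine of the interleukin-6 family, had 0.76, −0.43, 1.22 and 1.97 (0.88). In leukocyte adhesion (14 genes, median 0.14) the hyaluronan receptor Cd44 had 0.37, 0.93, 0.74 and 0.08 (0.53, adjusted p = 0.407), and Mcam 0.41, 0.25, 0.52 and 0.39 (0.39, adjusted p = 0.536). E-selectin (Sele) had 2.70 on replicate 1 and −0.19 to 0.50 on the others (0.82), and Selplg, a ligand of selectins, had −0.54.

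Markers of blood, liver, fat and skeletal muscle were read as a check of what else the artery pieces held. Of 31 abundant liver transcripts 16 were above 0 (median 0.03), 9 passed an unadjusted p under 0.05, all higher (29.0%, against 2.91% of all genes), and 2 were called, Ambp and Fgg. Albumin (Alb) had 0.85, 0.72, 0.64 and 1.13 (0.83, standard error 0.19, adjusted p = 0.0969) as the mean of 3 probes that disagreed. The Alb probe with no repeated value had 1.44, 1.92, 2.40 and 3.09 (2.21, adjusted p = 0.0376 over all probes), and the others, with every value repeated, had 0.18 and 0.10. The gene of prothrombin (F2) had 1.62, 0.20, 1.57 and 0.65 (1.01, adjusted p = 0.104). Of all values of the liver list 53.7% were repeated, against 29.6% over all genes. Other liver transcripts went the other way, and Cyp2e1, a cytochrome P450, had −1.68, −1.86, −2.48 and −0.13 (−1.54). The array medians of the liver list were 0.54, −0.06, 0.23 and −0.13 on replicates 1 to 4, above 0 only with old RNA in Cy5. Its 10 genes with no repeated value had a median of −0.26, with 4 above and 6 below 0. The list as a whole was thus not higher in old arteries.

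The erythroid list of 12 genes had a median of 0.34 with 9 above 0. The adult beta globin gene Hbb-b1 had 0.93, 1.57, 1.32 and 1.66 (1.37, adjusted p = 0.467), Slc4a1, the anion exchanger of red cells, 0.53, 0.86, 1.09 and 1.15 (0.91, adjusted p = 0.63), and Alas2, the first enzyme of haem synthesis in red cells, 1.53, 0.11, 1.32 and 0.22 (0.80, adjusted p = 0.49). These 3 were above 0 on every array, while 3 others of the 12, the embryonic globin gene Hbe1 and, by small amounts, the erythropoietin receptor gene Epor (−0.19) and the transcription factor gene Klf1 (−0.18), were below 0 on every array. In healthy arteries Hbb-b1, Slc4a1 and Alas2 had −1.79, −0.74 and −0.998. Adipocyte genes had a median of −0.21 (3 of 19 above 0), among them Plin4, a coat protein of lipid droplets, with 0.09, −2.17, −2.30 and −0.57 (−1.24, adjusted p = 0.186), Pparg at −0.39, Scd at −0.64 and Ucp1 at −0.51. Skeletal muscle genes had a median of 0.06 (12 of 22 above 0). The part of these cell types in the other results was not tested.

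Matrix genes had few members past a test. The median of 20 collagens was −0.08 with 8 above 0, and that of 27 genes of elastic fibres and other matrix −0.08 with 8 above and 19 below 0. Past an unadjusted p under 0.05 were 1 higher and 1 lower collagen, and 1 lower gene of the other matrix. Col3a1, the chain of collagen III, differed between the dye orientations, with −0.11 and 0.14 on the Cy5 arrays and −2.37 and −1.71 on the Cy3 arrays (dye-following part −1.01, adjusted p = 0.518, constant part 1.03, adjusted p = 0.159). Col1a2 had −0.59, −0.16, −0.47 and −0.85 (−0.51), Col1a1 −0.19, −0.07, −0.66 and −0.19 (−0.28, from probes with −0.71, −0.10 and −0.04), Col14a1 −0.28 and Col8a2 0.62. The chains of collagen I were below 0 on all 4 arrays, without a call (standard error 0.32 and 0.33). Col1a1 was below 0 by less than its standard error and Col1a2 by more. Of 26 matrix proteases and inhibitors, the metalloproteinases Mmp27 and Mmp10 were called lower, against 0.28% of all genes. Mmp27 had −1.42, −1.62, −3.59 and −0.53 with no repeated value (−1.79, standard error 0.33, adjusted p = 0.0453), and Mmp10, stromelysin-2, −2.23, −1.74, −1.22 and −0.34 with 3 repeated values (−1.38, adjusted p = 0.0368). The Mmp27 call ended without replicate 2 or 3 (adjusted p = 0.212 and 0.174) and that of Mmp10 without replicate 1 or 2 (adjusted p = 0.171 and 0.176). Both also ended with the replicate number as a random block (adjusted p = 0.0571 and 0.0527). Mmp7, matrilysin, had −0.08, −1.62, −2.39 and −1.06 (−1.29, adjusted p = 0.231).

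Growth genes of fetal life, many of them imprinted, were mostly below 0 without a call, with a median of −0.29 over 18 genes (5 above 0) and array medians of −0.23, −0.08, −0.40 and −0.33. Over all genes the array medians were 0.08, −0.10, 0.07 and −0.11, so the list was not low on replicate 2. H19, an imprinted non-coding RNA, had −0.80, −1.15, −0.95 and −1.41 (−1.08, standard error 0.36, adjusted p = 0.353). Cdkn1c, an imprinted inhibitor of cyclin-dependent kinases, had −0.70, −1.14, −0.64 and −0.60 over 4 probes (−0.77, adjusted p = 0.38), and Igf2bp2, an RNA-binding protein, −1.83, −0.69, −0.60 and −1.60 (−1.18, adjusted p = 0.466). None of these had a repeated value and all were below 0 on 4 of 4 arrays. Hmga2 was the exception among the named members, at 0.38, 0.33, 1.25 and 0.30 (0.56, adjusted p = 0.536), with 3 of 4 values repeated.

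The contractile genes of smooth muscle showed no shared direction. Their median was 0.00 (8 of 17 above 0), the array medians ran from −0.10 to 0.27, and no member passed an unadjusted p under 0.05. Srf, the transcription factor of contractile genes, had 0.19, 0.38, 0.23 and 0.33 (0.28, adjusted p = 0.677, from probes with 0.74, 0.07 and 0.03, the first with every value repeated), Cald1, caldesmon, 0.37, Itga8 0.26 and Myh11, the smooth muscle myosin heavy chain, −0.13. Myl9, the regulatory light chain of smooth muscle myosin on which the study centres, had 0.26, −0.24, −0.02 and 1.08 as the mean of the pair of probes that carry its name (0.27, standard error 0.38, adjusted p = 0.988). Without replicate 4 the sign changed (−0.06). The probe A_44_P181718, which the study lists for Myl9 and which has no gene in the annotation used here, had 0.33, 0.85, 0.84 and 0.37, above 0 on all arrays (0.60, standard error 0.21, 1.51-fold, unadjusted p = 0.0144 and adjusted p = 0.404 over all probes, from limma), with a constant part of −0.01.

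Gja5, Col1a1 and Col3a1, which the study also names, are given above. Of the others, none was called in the dye-following part. Itga1, an integrin, had 0.38, −0.33, 0.50 and −0.36 (0.05), the growth factor Vegfa 0.70, 0.08, 0.36 and −0.49 (0.16), and the survival gene Bcl2 0.27, 0.07, 0.13 and 0.63 (0.28). Bcl2 was above 0 on all 4 arrays, with a standard error of 0.18. The adhesion protein Vcam1 had 0.01, 0.06, 0.64 and −0.16 (0.14), Nox4, an NADPH oxidase, −0.51, 0.81, 0.27 and 0.28 (0.21), the secretion factor Cadps2 0.11 and the RNA-binding Rbm39 0.05. Ncf4, a subunit of the phagocyte NADPH oxidase, differed in sign between the dye orientations, with 0.80 and 0.27 on the Cy5 arrays and −0.70 and −0.94 on the Cy3 arrays. Its dye-following part was −0.14 and its constant part 0.68 (adjusted p = 0.0229).

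The large groups of housekeeping genes were close to 0, with no call in the dye-following part. Cytosolic ribosomal proteins (108 genes) had a median of 0.00 and array medians from −0.11 to 0.05, and nuclear genes of oxidative phosphorylation (80 genes) had a median of 0.01. Proteasome subunits (39 genes) had a median of 0.07 with 31 above 0. Olfactory and vomeronasal receptors made up 8 of the 57 called genes, all lower, which is 8 of 1160 receptors measured, against 0.28% of all genes called lower. Their dye-following median was −0.14 (410 of 1160 above 0), and 209 of them were called in the constant part, 200 higher and 9 lower, against 5.71% and 2.92% of all genes. Of their values 75.6% were repeated.

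**Figure D4:**
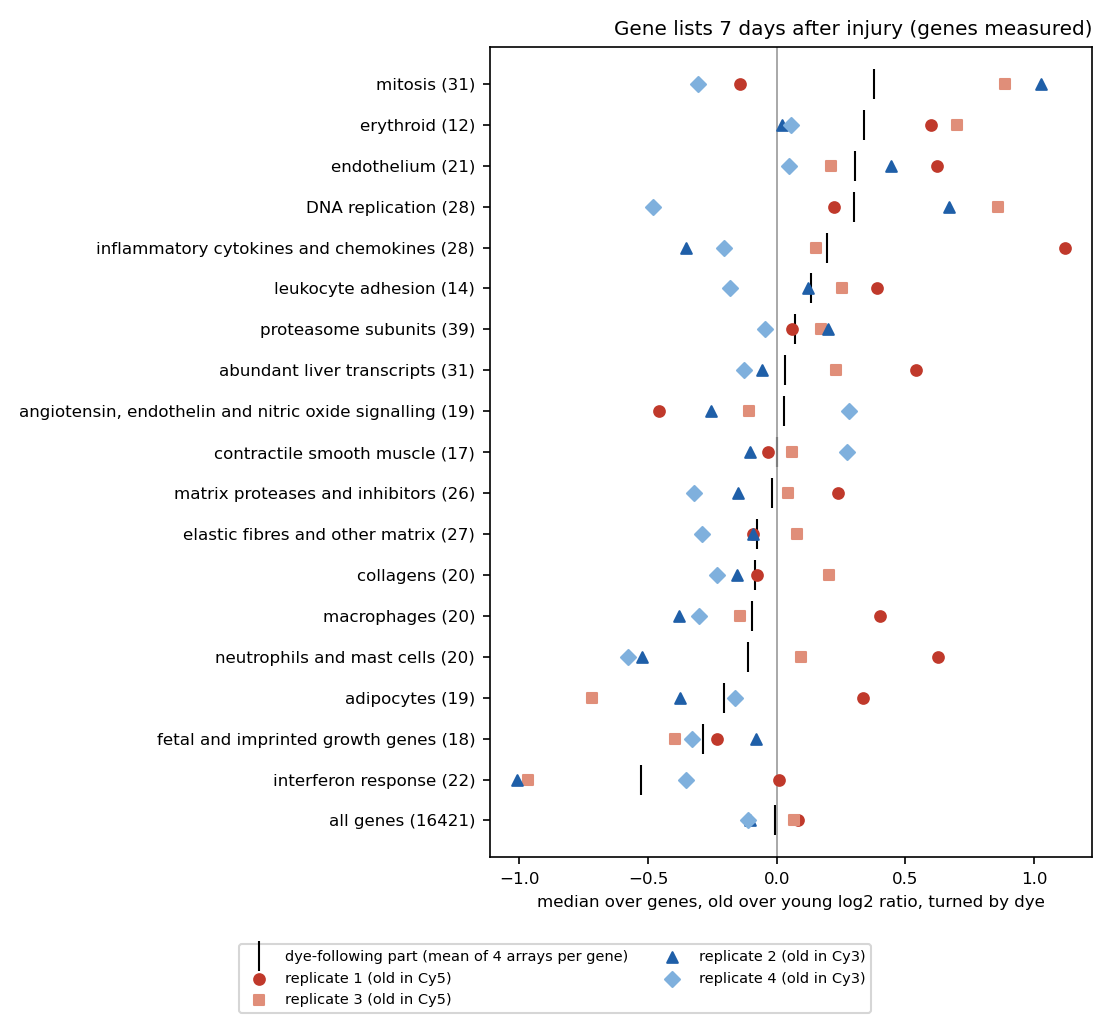
Median old over young log2 ratio, turned by dye, of 18 gene lists and of all genes (numbers of genes in brackets) on each of the 4 arrays at 7 days (points, red with the old artery in Cy5 and blue with it in Cy3), with the median dye-following part (black). Endothelium is above 0 and the fetal growth genes below 0 on every array, but on replicate 2 the fetal median (−0.08) lies above that of all genes (−0.10). The interferon response and mitosis have replicates 2 and 3 apart from 1 and 4, and cytokines and macrophages have replicate 1 highest.

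Whether the old over young difference at 7 days was itself different from that in healthy arteries or at 3 days was tested in the same fit. Against healthy arteries 2 genes (0.0122%) passed an adjusted p under 0.05, Plppr5 (difference −2.91, adjusted p = 0.00686) and Apba2 (−2.57, adjusted p = 0.00414). In healthy arteries their ratios were 0.16 and −0.01. S100vp, at 0.27 in healthy arteries, had an adjusted p of 0.0503. At an unadjusted p under 0.05, 643 genes (3.92%) differed from healthy arteries and 1435 (8.74%) from 3 days. Against 3 days 19 genes (0.116%) passed, 4 higher and 15 lower, and 18 of the 19 were among the 57 genes called at 7 days. Apba2 changed the most, from 2.07 at 3 days to −2.58 (difference −4.65, adjusted p = 9.74e-07). Hbe1 had 0.14 at 3 days (difference −2.14, adjusted p = 0.0177), Prlr −0.18 (−1.75, adjusted p = 0.042), Slco1a4 0.17 (−1.87, adjusted p = 0.0216), Tnfrsf18 −0.36 (−1.73, adjusted p = 0.0332), S100vp 0.38 (2.62, adjusted p = 0.0177) and Ambp 0.06 (1.90, adjusted p = 0.0276).

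A few genes called at 7 days had a similar ratio in healthy arteries. Of the 57, 3 were at least 2-fold changed there in the same direction. Agt had −1.82 in healthy arteries, 0.02 at 3 days and −1.37 at 7 days. Mmp27 had −1.68, 0.17 and −1.79, and Scn3a, a sodium channel subunit of neurons named here after its values were seen, −1.30, 0.11 and −1.52. Igf2bp2, without a call, had −1.91, −0.02 and −1.18. For each of these the value at 3 days was near 0. At 30 min after injury Agt had −1.64 and Mmp27 −2.02, whereas Scn3a had −0.18. The difference between 7 and 3 days passed for Scn3a (adjusted p = 0.0276) but not for Agt (adjusted p = 0.14) or Mmp27 (adjusted p = 0.144). Contractile genes had a median of 0.41 in healthy arteries, 0.11 at 3 days and 0.00 at 7 days, and ribosomal proteins 0.25, −0.12 and 0.00. These medians were not tested against each other.

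**Figure D5:**
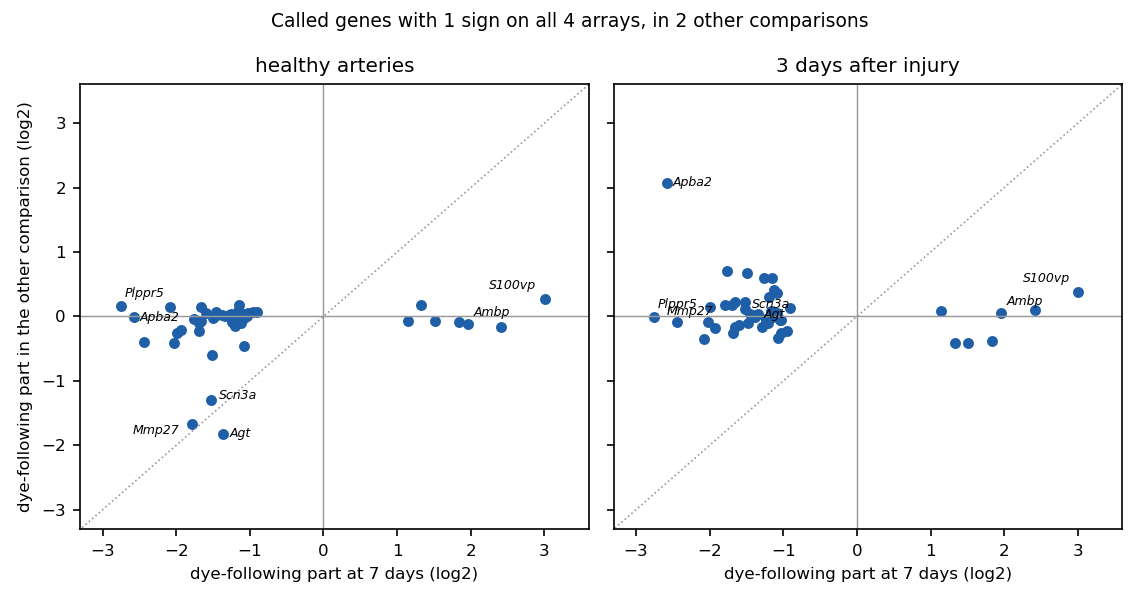
The 48 genes called at 7 days with the same sign on all 4 turned arrays, by their dye-following part at 7 days (horizontal axis, log2) and in healthy arteries or at 3 days (vertical axes, log2), with a dotted line of equal values. Most lie near 0 in the other comparisons, while Agt, Mmp27 and Scn3a lie low in healthy arteries and Apba2 at 2.07 at 3 days. The arrays at 7 days had a wider spread than those of healthy arteries (SD 0.745 to 0.891 against 0.372 to 0.452), so the axes are not on a like scale.

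The constant part, in which arrays of both dye orientations had the same sign as deposited, ran from −5.18 to 2.84 over all genes, against −2.75 to 3.00 in the dye-following part, so that it reached lower but not higher values. Its lowest genes were Ulk1, the kinase that starts autophagy, with −5.25, −5.35, −5.49 and −4.65 as deposited on replicates 1 to 4 (−5.18, standard error 0.63, adjusted p = 0.00103), Qser1 with −4.03, −1.67, −5.26 and −5.12 (−4.02, adjusted p = 0.000394), the mitochondrial ribosomal protein gene Mrps7 with −3.99, −3.87, −2.88 and −4.15 (−3.72, adjusted p = 5.52e-06) and the phosphatase Ptpn12 with −2.81, −3.06, −2.75 and −4.91 (−3.38, adjusted p = 0.000563). Ulk1, Qser1 and Ptpn12 had no repeated value. Their dye-following parts were −0.19, −0.63 and 0.60, none called. The highest were the olfactory receptor genes Or2p2 (2.84) and Or6b6 (2.32), Epop, a partner of the Polycomb complex (2.04), and the neuronal transcription factor Npas1 (1.94), each with 3 of 4 values repeated. Epop was also called in the dye-following part (1.30, adjusted p = 0.039) with arrays on both sides of 0. That call ended without replicate 2, 3 or 4 (adjusted p = 0.109, 0.166 and 0.0858).

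Of the 1418 genes called in the constant part, 1287 (90.8%) had the same sign in the constant part at 3 days, against 74.4% of all genes. Ptpn12 had −2.84 at 3 days, Or2p2 2.20 and Ulk1 −1.49. The number of calls depended on each array: without replicate 1, 2, 3 or 4 it was 524, 576, 894 or 874. If the deposited ratios were already old over young, the 1418 calls would be the difference between ages and the 57 a dye effect. The data of these 4 arrays do not settle which reading applies.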

How the data were processed

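RNA of 40 iliac arteries was hybridised in pairs to 20 Agilent Whole Rat Genome arrays. The authors scanned with GenePix, normalized by Lowess in Acuity and describe filters of spot quality. For their tests they name RMA values in GeneSpring and a one-way analysis of variance with no correction. As deposited, each value is a log2 ratio between the channels, none is missing, and the step that made them is not given in the sources used here. Precision is limited by the number of arrays. Of 41010 named probes 21394 had 1 gene symbol and 19616 none, 1 symbol was updated, and the probes of a gene were averaged (16421 genes). limma 3.58.1 (R 4.3.3) fitted a dye-following and a constant coefficient for each comparison on all 20 arrays, with 1 array weight per comparison (0.731 at 7 days), 8 residual and 4.01 prior degrees of freedom, and Benjamini-Hochberg adjustment over all genes. The replicates are separate arrays, and no label says that each rat gave 1 artery only. The members and gene lists were chosen with earlier results of these data known. Named genes are the 10 highest and 10 lowest in the dye-following part and the 4 highest and 4 lowest in the constant part with an adjusted p under 0.05 and 1 sign on all arrays (where fewer pass, as for the highest, a 2-fold change with an unadjusted p under 0.01), in each described list at most 4 members, those of smallest p, and genes the study names. Other members named to show a list's pattern were chosen after their values were seen. A value is called repeated where at least 5 probes of an array hold it. Scripts were tested on simulated data. Alternatives were equal weights, the 7-day arrays alone, a shared dye coefficient, equal spread, centring, single probes, the median of probes, a replicate block, leaving out replicates and an unmoderated test of each gene's 4 ratios against 0. Leaving out probes with repeated values was added after seeing the data.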

Additional observations from a re-analysis of the deposited data

Results flagged for a closer look

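In 7 named genes a single array stood apart from the other 3 by Dixon's criterion, which chance meets in about 1 in 20 groups. They were S100vp on replicate 1 (2.29, the other arrays 3.21 to 3.27), Gja5 on replicate 1 (0.15), Kdr on replicate 1 (0.62), S100a8 on replicate 4 (0.32), Ms4a2 on replicate 2 (−0.058), Hmga2 on replicate 3 (1.25) and Itga8 on replicate 4 (1.05). S100vp stayed called without that array. Its value on replicate 1 was shared by 17 probes. Among the many genes named here several such flags would be met by chance, so the 7 are not findings by themselves.

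The old over young ratio at 7 days differed from that in healthy arteries by the interaction term in limma for Plppr5 (−2.91) and Apba2 (−2.57). It differed from that at 3 days for S100vp (2.62), Ambp (1.90), Plppr5 (−2.74), Apba2 (−4.65), Tnfrsf18 (−1.73), Hbe1 (−2.14), Prlr (−1.75) and Slco1a4 (−1.87). Of these genes, Ambp, Hbe1 and Slco1a4 had constant parts between −0.07 and 0.04, while Plppr5, Apba2 and Tnfrsf18 had −1.85, −1.76 and −1.30.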

How the results depend on the processing

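Among the named genes, 1105 values kept direction and side of the threshold, 71 fell below it, 21 passed it anew and 13 changed sign. Only the 18 named genes that were called could fall below it, so all 71 belong to them. Of the 12 to 14 alternatives of each called gene, 2 to 7 ended its call. Most of the 1105 values are of genes not called in the first place, and that count does not show that the calls are stable. All 120 of 120 list medians moved by less than the SD of that list's 4 array medians. That SD is wide where the arrays differ, as for mitosis (−0.14, 1.03, 0.89 and −0.30), and leaving out 1 array can hardly move a median beyond it. The count therefore does not show that the list medians are stable. The number of genes called in the dye-following part (57) was 150 with equal weights, 172 with 1 shared dye coefficient, 0 with the 7-day arrays alone, 0 by the unmoderated test of each gene's own ratios (635 at an unadjusted p under 0.05), 32 (10 higher, 22 lower) without probes with a repeated value, chosen after seeing the data, and 50 to 164 when a replicate was left out. Of the 57 genes, 57, 48 and 14 were shared with equal weights, the shared dye coefficient and no repeated values, and 31, 24, 27 and 42 without replicates 1, 2, 3 and 4. At the study's thresholds the 227 genes became 59 with equal spread, 70 by the unmoderated test, 81 without repeated values, 651 of 41010 single probes and 325 to 479 without a replicate.

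In the constant part the 1418 genes became 2329 with equal weights, 0 with the 7-day arrays alone (3744 at an unadjusted p under 0.05), 7 by the unmoderated test, 2155 without repeated values (1200 higher, 955 lower), 4393 as single probes (2049 higher, 2344 lower) and 524 to 894 without a replicate. At the study's thresholds the 724 genes became 192 with equal spread, 460 by the unmoderated test, 412 without repeated values, 3055 as single probes and 786 to 1039 without a replicate. The difference from healthy arteries (2 genes) gave 4 with equal weights, 4 with centring, 4 with the median of probes, 4 as single probes, 5 with the shared dye coefficient, 1 without repeated values, 0 with equal spread (832 at an unadjusted p under 0.05), 0 with the arrays of the comparison alone (680) and 3 to 11 without a replicate. The difference from 3 days (19 genes) gave 34 with equal weights, 1 with the arrays of the comparison alone, 11 without repeated values, 31 as single probes and 3 to 96 without a replicate, the lowest without replicate 4 at 3 days and the highest without replicate 4 at 7 days. The causes were not tested. Leaving out healthy replicate 2 was not run, because 1 dye orientation would remain.

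When a replicate was left out, the dye-following part changed sign within the ranges of Npas1 (−1.11 to 0.14, 0.02 without replicate 1 and 0.14 without replicate 2), Qser1 (−1.49 to 0.24, the latter without replicate 2), Myl9 (−0.061 to 0.60, the former without replicate 4), Vcam1 (−0.018 to 0.30, without replicate 3), Cadps2 (−0.096 to 0.31, without replicate 1, and −0.029 without replicate 4) and Rbm39 (−0.11 to 0.22, without replicate 3, and −0.026 without replicate 2). Kif11 gave 0.54 without repeated values and for its least changed probe, and the least changed probes of Agtr2 and Cadps2 gave 0.0066 and −0.051. None of these was called in the dye-following part. Residual correlations between arrays at 7 days and those of other comparisons ran from −0.0712 to 0.0712. Whether replicate numbers pair the arrays could not be decided from them. The number is tied to the dye orientation, and residuals of arrays of the same orientation mirror each other. With the replicate number as a random block 52 genes were called in the dye-following part, 221 at the study's thresholds, 1384 and 722 in the constant part, 2 against healthy arteries and 15 against 3 days. No depth or signal over background could be set beside these ratios, and the 4 arrays limit the precision.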
